A study of Mus musculus with 4 samples.

Results

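ERVK loci other than the intracisternal A-particle (IAP) and RLTR10 elements were examined in RNA-seq counts from WT and Lsh-/- mouse cells and embryos. They were all loci of the LTR tables whose repeatmasker family was ERVK and whose name began with neither IAP nor RLTR10. The rule used names only and no counts. It found 1799 of the 6216 listed LTR loci, beside 2541 IAP loci, 878 RLTR10 loci and 998 LTR loci of other families. They carried 71 repeat names and were 101 to 9901 bp long, with a median of 4653 bp. Some of them overlapped each other, so that the 1799 loci made 1707 separate regions. A locus was listed only where it had a read, and the number listed was 753 in WT fibroblasts, 1059 in Lsh-/- fibroblasts, 1057 in WT embryos and 1075 in Lsh-/- embryos.

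Libraries came from adult C57BL/6J tail-tip fibroblasts immortalized with SV40, WT or Lsh-/-, and from whole C57BL/6J embryos of either genotype at E13.5. Each of the 4 groups was 1 library. Each fibroblast genotype was a single transformed culture, so a difference between genotypes and a difference between the cell lines cannot be told apart. Control embryos are labelled WT, but the methods text speaks of tissue from heterozygous and homozygous embryos. The tables hold repeats only, so the loss of Lsh itself was not checked, and no difference between a pair of libraries has a replicate check. Every p-value below therefore compares the reads of 2 libraries and not the genotypes. In bulk RNA, a change in the number of expressing cells and a change in RNA per cell cannot be told apart.

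ERVK elements are endogenous retroviruses of the class II group, related to betaretroviruses. An intact copy has an internal stretch between a pair of long terminal repeats (LTRs) that were identical when it inserted, and the upstream LTR carries the promoter. In somatic tissue such copies are known to be kept silent by DNA methylation at CpG sites and by repressive histone marks, and Lsh, encoded by Hells, is a chromatin remodelling helicase needed for normal DNA methylation. RLTRETN_Mm is named for the LTR of the early transposons (ETn), which encode no proteins of their own and are mobilized by those of the related MusD elements. The name is that of an LTR, and whether a locus under it is an ETn or encodes proteins was not examined.

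The first 300 bases of 8 loci are shown on the strand of the element, 5′ to 3′, with every CpG in capitals. RLTR17 is shown because it had the most reads of the higher loci that lay away from IAP, the 3 RLTRETN_Mm loci because they differed in pattern between tissues, the pair of RLTR46 loci because 1 went opposite ways in the tissues, and RLTR40 and RLTR44A because they were higher in both tissues.
RLTR17 on chromosome X, mm9 chrX:86128716-86129015, minus strand, 17 CpG: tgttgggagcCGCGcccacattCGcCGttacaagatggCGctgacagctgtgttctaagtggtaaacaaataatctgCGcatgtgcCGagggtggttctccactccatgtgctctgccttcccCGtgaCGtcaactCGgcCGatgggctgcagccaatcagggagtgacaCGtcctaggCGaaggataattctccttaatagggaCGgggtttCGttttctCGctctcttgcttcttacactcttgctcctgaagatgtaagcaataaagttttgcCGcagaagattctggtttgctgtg
RLTRETN_Mm on chromosome 9, mm9 chr9:35625185-35625484, minus strand, 16 CpG: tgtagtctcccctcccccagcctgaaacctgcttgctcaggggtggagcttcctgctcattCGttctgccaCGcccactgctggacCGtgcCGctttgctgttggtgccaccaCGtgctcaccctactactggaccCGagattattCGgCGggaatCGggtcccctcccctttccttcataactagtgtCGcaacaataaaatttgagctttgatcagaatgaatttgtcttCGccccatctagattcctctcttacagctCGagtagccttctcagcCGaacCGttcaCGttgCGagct
RLTRETN_Mm on chromosome 17, mm9 chr17:32506367-32506666, plus strand, 16 CpG: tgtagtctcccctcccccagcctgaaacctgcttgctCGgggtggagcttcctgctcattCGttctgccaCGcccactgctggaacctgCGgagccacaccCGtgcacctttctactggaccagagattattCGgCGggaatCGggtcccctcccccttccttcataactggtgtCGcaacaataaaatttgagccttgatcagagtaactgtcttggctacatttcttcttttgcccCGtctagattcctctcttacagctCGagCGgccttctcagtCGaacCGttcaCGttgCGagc
RLTRETN_Mm on chromosome 6, mm9 chr6:124752254-124752553, minus strand, 10 CpG: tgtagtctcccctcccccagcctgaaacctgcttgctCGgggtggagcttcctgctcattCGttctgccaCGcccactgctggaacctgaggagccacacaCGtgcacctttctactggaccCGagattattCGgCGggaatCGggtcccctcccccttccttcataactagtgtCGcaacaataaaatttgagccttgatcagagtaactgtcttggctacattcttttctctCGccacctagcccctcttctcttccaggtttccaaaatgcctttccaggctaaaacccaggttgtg
RLTR46 on chromosome 6, mm9 chr6:3291182-3291481, minus strand, 9 CpG: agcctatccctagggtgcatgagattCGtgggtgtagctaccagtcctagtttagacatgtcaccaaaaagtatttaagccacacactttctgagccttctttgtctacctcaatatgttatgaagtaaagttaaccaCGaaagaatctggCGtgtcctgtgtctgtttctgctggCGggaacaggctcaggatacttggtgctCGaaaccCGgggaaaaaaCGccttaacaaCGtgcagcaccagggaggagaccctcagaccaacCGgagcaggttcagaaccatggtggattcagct
RLTR46 on chromosome 9, mm9 chr9:4259367-4259666, plus strand, 11 CpG: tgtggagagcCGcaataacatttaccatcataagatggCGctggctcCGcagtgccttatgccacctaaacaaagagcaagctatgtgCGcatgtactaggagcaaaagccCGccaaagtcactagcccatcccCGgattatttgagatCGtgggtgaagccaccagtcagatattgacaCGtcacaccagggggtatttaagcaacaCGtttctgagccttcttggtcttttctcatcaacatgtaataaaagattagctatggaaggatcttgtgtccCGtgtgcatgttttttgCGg
RLTR40 on chromosome 12, mm9 chr12:116162169-116162468, plus strand, 1 CpG: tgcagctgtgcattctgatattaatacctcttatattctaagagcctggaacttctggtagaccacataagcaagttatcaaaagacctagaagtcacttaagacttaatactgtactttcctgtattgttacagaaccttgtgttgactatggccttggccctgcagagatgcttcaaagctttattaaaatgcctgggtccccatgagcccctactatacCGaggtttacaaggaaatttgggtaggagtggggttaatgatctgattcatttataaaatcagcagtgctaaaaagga
RLTR44A on chromosome 9, mm9 chr9:97175955-97176254, plus strand, 10 CpG: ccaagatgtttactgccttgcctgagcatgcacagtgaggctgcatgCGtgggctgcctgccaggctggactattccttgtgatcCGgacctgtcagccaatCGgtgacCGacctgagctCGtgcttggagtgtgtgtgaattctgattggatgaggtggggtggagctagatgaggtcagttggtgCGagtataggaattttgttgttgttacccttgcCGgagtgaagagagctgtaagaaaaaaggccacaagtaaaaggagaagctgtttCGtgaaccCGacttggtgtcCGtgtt
Pairs of the 3 RLTRETN_Mm windows were 78.0%, 84.5% and 87.3% identical when aligned over the window. The pair of RLTR46 windows was 48.3% identical, but these windows begin at different points of the repeat. The stretch tttctgagccttctt lies nearer the start of the chromosome 6 window than of the chromosome 9 window. The value therefore does not measure how alike the RLTR46 copies are. The RLTR40 window held 1 CpG and the RLTR17 window 17, whereas the median over the 1791 loci with sequence was 3, against 15 for IAP loci and 7 for RLTR10 loci.

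The 6 tables of a library together held between 19216257 and 33904311 counts. At the ERVK loci described here the WT and Lsh-/- totals were 33042 and 48465 counts in fibroblasts, and 63806 and 63631 in embryos. A few loci in genes carried much of this, since the 3 loci with the most counts held 29.9% to 40.1% of it in each library and loci over annotated exons held 55.9% to 76.8%. Without exonic loci and loci near IAP the counts were 7535 and 15282 in fibroblasts and 20914 and 23051 in embryos. Counts on chromosome Y, in the intervals around LINE-1 loci, were 12 in the WT culture and 5402 in the Lsh-/- culture, against 19973 and 20654 in the embryos. With chromosomes X and Y left out, the share of loci above a log2 fold change of 5 in fibroblasts, described next, was 22.8% in place of 23.6%.

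In fibroblasts, these ERVK loci included a group with reads almost only in the Lsh-/- library and a larger group with little difference. The remaining loci had smaller rises or were lower in the Lsh-/- library. Of 1286 loci with a read in either library, 398 had at least 10 and were tested. A log2 fold change, Lsh-/- over WT after TMM scaling and with a prior count of 0.125, was within 1 of 0 at 196 of them (49.2%). By an exact binomial test between the libraries, adjusted over all LTR loci (Benjamini-Hochberg, 0.05), 169 were higher (42.5%) and 45 lower (11.3%). Among all 2103 LTR loci tested, 77.6% were higher and 4.42% lower. The median log2 fold change was 0.42 (95% order-statistic interval over loci 0.28 to 0.74). It rests on the scaling, since it was -0.89 when libraries were scaled by their LTR counts and 1.10 when scaled by all 6 tables. The higher and lower calls were then 82 and 183 by the LTR counts, and 244 and 15 by all 6 tables.

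A log2 fold change above 5 was found at 94 of the 398 loci, or 23.6% (95% Wilson interval 19.7 to 28.0), against 60.3% of all LTR loci, and 5 loci were below -5, where the share of all LTR loci was 0.428%. For comparison, it was 81.1% of IAP loci, 34.8% of RLTR10 loci and 22.8% of LTR loci outside ERVK. It was 23.1% when scaled by the LTR counts and 23.9% by the overall total, but a prior count of 1 gave 8.79% and all listed loci 14.5%. It is almost a count of loci that were silent in WT cells, since 89 of the 94 had no WT read at all, and a locus with no WT read that reached 10 reads had to pass 5. In all, 150 loci were tested only through their Lsh-/- reads and 46 only through their WT reads. Together the 94 loci had 13 WT reads and 12830 Lsh-/- reads. Of the 201 loci with at least 10 WT reads, none (0) passed 5, 33 were higher and 44 lower. Of the 365 loci with at least 10 reads in WT embryos, 238 also had 10 reads in the fibroblast libraries together, and 11 of these passed 5 in fibroblasts, or 4.62% (2.60 to 8.09). The fold changes are plotted by repeat name.

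**Figure D1:**
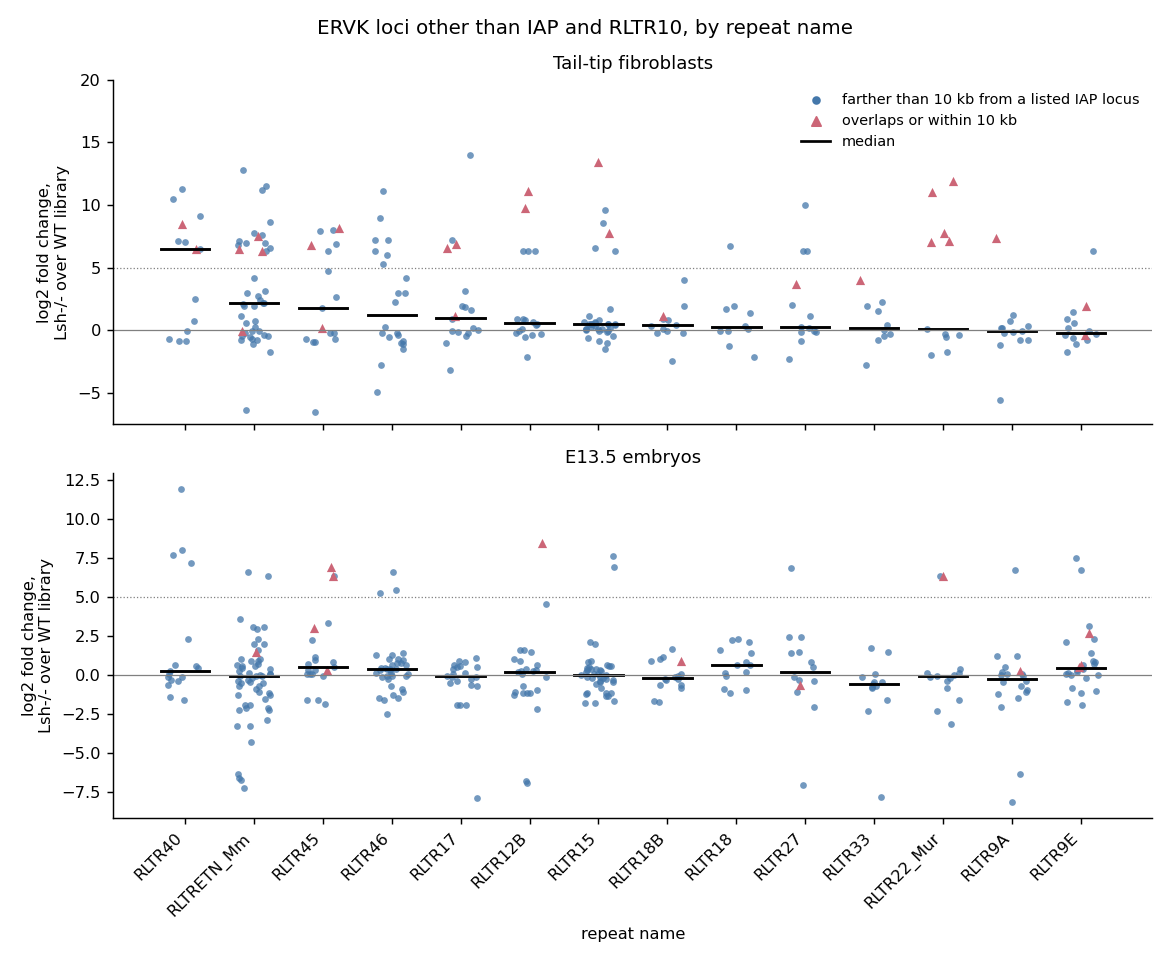
Log2 fold change of Lsh-/- over WT in fibroblasts (top) and E13.5 embryos (bottom) for each tested locus, by repeat name, for the 14 names with at least 10 tested loci in both tissues. Each point is a locus, triangles overlap or lie within 10 kb of a listed IAP locus, black lines are medians and the dotted line is at 5. In fibroblasts RLTR40 and RLTRETN_Mm have the most points above the dotted line, with 8 and 15 loci, and in embryos 4 and 2.

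Loci on or beside IAP copies were counted apart. Of the 1799 loci, 53 overlapped a listed IAP locus and 110 overlapped or lay within 10 kb of 1. In fibroblasts 48 such loci were tested, and 34 were above 5 (70.8%, 56.8 to 81.8). Among the 350 loci farther away 60 were (17.1%, 13.6 to 21.4), with 129 higher, 43 lower and a median of 0.29. Where the loci overlapped an IAP locus, 29 of 30 were higher and 24 above 5, and for loci within 10 kb without overlap these counts were 11 and 10 of 18. No WT read was found at 32 of the 48 loci and at 57 of the 350, and at least 10 at 3 and 198. A tested locus with no WT read had to pass 5. The contrast is thus mainly between loci silent in the WT library and loci with WT reads. Every comparison of this kind is a description over loci of the same libraries.

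The overlapping loci with the most counts had nearly the counts of that IAP in a pair of cases. RLTR20B3 at mm9 chr8:104528599-104534408, between genes, had 1 read in WT fibroblasts, 2302 in Lsh-/- fibroblasts, 1 in WT embryos and 15 in Lsh-/- embryos. The IAPLTR1_Mm locus that lies inside its bounds, on the opposite strand, had 1, 2189, 1 and 15. If reads were counted without regard to strand, nearly all reads of that RLTR20B3 locus thus fell within the IAP. RLTR15 at chr15:20901926-20908310 had 1428 reads in Lsh-/- fibroblasts and 0 in the other 3 libraries, which put it at least 461-fold above WT fibroblasts when 3 counts are taken as the limit of a library at 0. The IAPLTR1_Mm inside it had 1379 of them. RLTR22_Mur at chr1:116081310-116088372 had 0, 498, 0 and 7 reads, and was at least 161-fold higher in Lsh-/- fibroblasts. Here the IAPLTR1_Mm within its bounds had only 39 reads in Lsh-/- fibroblasts, so most reads lay in the parts of the locus outside the IAP. All 5 RLTR22_Mur loci above 5 in fibroblasts overlapped an IAP locus, and none (0) of the 6 tested farther away was above 5.

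Distance to a listed IAP locus did not account for all IAP sequence. Runs of 24 letters that occur in at least 10 of the listed IAP loci were searched for on both strands of the 1791 loci with sequence, and a locus was said to hold IAP sequence where such runs covered at least 100 bases. This held for 272 loci, 215 of them farther than 10 kb from a listed IAP locus. The runs were common in RLTR46, where 56 of 57 loci held them over a median of 985.5 bases, and rare in RLTRETN_Mm, at 6 of 261. Within the loci tested farther from IAP in fibroblasts, 15 of 58 that held IAP sequence were above 5 (25.9%, 16.3 to 38.4) and 45 of 291 that did not (15.5%, 11.8 to 20.1). In embryos the counts were 6 of 88 and 22 of 447.

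The RLTR17 locus at chrX:86121597-86129015, printed first above, had 0 reads in WT fibroblasts, 2088 in Lsh-/- fibroblasts and 0 in both embryo libraries, and so was at least 674-fold higher in the Lsh-/- fibroblasts. All 300 bases of its printed start lay in runs shared with IAP loci, although no listed IAP locus was within 10 kb and its name is RLTR17. Only 4 loci farther than 10 kb from IAP had at least 100 such bases in their first 300, and RLTR17 was the only 1 of them with enough reads to be tested. The nearest protein-coding gene, Pet2, was 520172 bp away. On chromosome X as a whole, 8 of 21 tested loci were above 5 in fibroblasts.

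RLTRETN_Mm, named for the ETn LTR, was the most frequent name, with 263 loci. In fibroblasts 43 were tested, of which 27 were higher, 4 lower and 15 above 5, which was 34.9% (22.4 to 49.8). Of those 15, 3 were near an IAP locus and 14 had a terminal repeat at each end, as an intact copy has. Read counts at these 15 loci in Lsh-/- fibroblasts ran from 10 to 890, with a median of 18, and all had 0 reads in WT fibroblasts. Among the 263 loci 93.5% of those with sequence had terminal repeats, with a median identity of 98.7%, against 46.5% and 93.4% over all the ERVK loci described here.

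The RLTRETN_Mm locus with the most Lsh-/- fibroblast reads, at chr9:35619912-35625484 on the minus strand between genes, had 0 reads in WT fibroblasts, 890 in Lsh-/- fibroblasts, 1 in WT embryos and 3 in Lsh-/- embryos. It was thus near silent outside the Lsh-/- culture, and at least 287-fold higher in it (exact binomial test, adjusted p = 1.80e-260). Its ends were 98.1% identical. A second copy, at chr17:32506367-32513461, overlaps an exon of the zinc finger gene Wiz and the lincRNA Gm17561, with ends 100% identical. It had 0 and 377 reads in fibroblasts but 193 and 275 in embryos, so it was silent in WT fibroblasts only. The ratio in embryos was 1.48 (exact counting interval 1.23 to 1.79), and in fibroblasts at least 122-fold. Another copy, at chr6:124747048-124752553 and 6126 bp from Spsb2, had 4 and 19 reads in fibroblasts and 119 and 54 in embryos. It was higher in Lsh-/- fibroblasts, by 4.60-fold (1.53 to 18.6), and lower in Lsh-/- embryos, at 0.471 of WT (0.335 to 0.655). The embryo call was lost in an edgeR exact test that assumed a biological coefficient of variation of 0.4 (adjusted p = 0.415). Reads in the interval downstream of this copy were 12053, 8813, 5763 and 3260, fewer in each Lsh-/- library, which in fibroblasts is opposite to the copy itself.

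In embryos, of 57 RLTRETN_Mm loci tested, 11 were higher and 18 lower, 2 were above 5 and 4 below -5, and the median was -0.08 (-0.68 to 0.41). For the 29 tested in both tissues, 21 had the larger fold change in fibroblasts. Among RLTRETN_Mm loci above 5 in fibroblasts, 3 more had at least 10 reads in WT embryos. They were those in Rb1 and Rcbtb2 on chromosome 14, with 14 reads in Lsh-/- fibroblasts and 50 and 30 in embryos, near Pih1d2 on chromosome 9, with 18 and then 33 and 51, and near Gm16503 on chromosome 4, with 16 and then 12 and 19. These were named after their values were seen.

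RLTR46 loci went both ways in fibroblasts, where 11 of 22 tested loci were higher, 5 lower and 7 above 5. No tested RLTR46 locus was near a listed IAP. The locus at chr6:3283361-3291481, 30776 bp from Samd9l, had 5 and 335 reads in fibroblasts and 835 and 1071 in embryos. The WT fibroblasts therefore stood apart from the other 3 libraries, with a fibroblast ratio of 64.9 (27.5 to 201) and an embryo ratio of 1.33 (1.22 to 1.46). By contrast, RLTR46 at chr3:61961927-61969229 had 153 and 5 reads in fibroblasts and 15 and 28 in embryos, and was lower in Lsh-/- fibroblasts at 0.0316 of WT (0.0101 to 0.0755). RLTR46 at chr16:3625206-3633147 had 3, 123, 8 and 342 reads and was higher in both tissues, with ratios of 39.7 (13.3 to 195) and 44.4 (22.3 to 104). In embryos 12 of 36 RLTR46 loci were higher, 4 lower and 3 above 5.

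RLTR40 gave the largest share above 5 of any name with at least 10 tested loci in fibroblasts, at 8 of 14 loci (57.1%, 32.6 to 78.6), with all 8 at 0 reads in both WT libraries. Of these, 2 overlapped a listed IAP locus, and farther than 10 kb from IAP 6 of 12 were above 5. In embryos 4 of 17 were above 5. However, 7 of the 8 lay in a single stretch of chromosome 12. These included all 6 that were farther than 10 kb from IAP, and all 4 above 5 in embryos lay there too. The RLTR40 shares thus mainly describe this stretch. Within 500 kb of the RLTR40 locus named in embryos, 13 RLTR40 loci were listed, all on the plus strand of chromosome 12 between 115903133 and 116183371, a span of 280 kb in which 2 of them overlap the immunoglobulin heavy chain variable genes Ighv1-24 and Ighv1-42. These 13 loci held 0 reads in WT fibroblasts, 644 in Lsh-/- fibroblasts, 0 in WT embryos and 581 in Lsh-/- embryos. The WT libraries of both tissues were thus at 0 at all 13 of these RLTR40 loci. Most reads fell on chr12:116162169-116168697, with 0, 314, 0 and 481, at least 101-fold higher in Lsh-/- fibroblasts and at least 166-fold in embryos. The next was chr12:116042094-116046991 with 0, 178, 0 and 25. Several neighbouring copies overlap at their ends, so some reads may count for both, and the 13 are not independent. This stretch was picked out after its values were seen.

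RLTR45 had 9 of 17 loci higher, 2 lower and 6 above 5 in fibroblasts, and 8 of 21 higher, 3 lower and 3 above 5 in embryos. RLTR17 had 9 of 18 higher, 1 lower and 4 above 5 in fibroblasts and only 1 of 22 higher, 3 lower and 0 above 5 in embryos. RLTR15 had 12 of 35 higher, 2 lower and 6 above 5 in fibroblasts, and 9 of 41 higher, 6 lower and 2 above 5 in embryos. RLTR12B had 6 of 18 higher, 2 lower and 5 above 5 in fibroblasts, and 6 of 25 higher, 6 lower, 1 above 5 and 2 below -5 in embryos. Of the loci above 5 in fibroblasts, 2 of each of these 4 names lay on or within 10 kb of a listed IAP locus. Farther away, 4 of 14 RLTR45, 2 of 15 RLTR17, 4 of 33 RLTR15 and 3 of 16 RLTR12B loci were above 5. In embryos it was 1 of 17 RLTR45 and 0 of 24 RLTR12B loci.

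For the other names with at least 10 tested loci in fibroblasts, most loci were below 5. RLTR9A, RLTR9E, RLTR18B and RLTR33 had 13, 14, 12 and 10 tested loci in fibroblasts, with 1, 1, 0 and 0 above 5 and medians of -0.05, -0.20, 0.38 and 0.21. RLTR27 had 3 of 13 above 5, all 3 farther than 10 kb from IAP, and RLTR18 had 1 of 10. Names with fewer tested loci varied, with 2 of 3 above 5 for both RLTR13A2 and RLTR13A3 and 1 of 5 for RLTR13D5. In embryos 5 of 11 RLTR25A loci were lower and 1 higher, and 3 of 13 RLTR33 loci were lower and 0 higher. Their medians were -0.71 (-2.34 to 1.04) and -0.59 (-1.62 to 0.05).

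The other named fibroblast loci away from IAP had reads in WT cells. RLTR44A at chr9:87085218-87087161 overlaps an untranslated exon of 4922501C03Rik on the opposite strand and had 215 and 479 reads in fibroblasts and 332 and 170 in embryos. The fibroblast ratio was 2.16 (1.83 to 2.55) and the embryo ratio 0.532 (0.439 to 0.641). The direction in fibroblasts was not kept when libraries were scaled by their LTR counts, where the log2 fold change was -0.21 in place of 1.11, and the call was lost in the edgeR test with assumed variation (adjusted p = 0.250). RLTR31_Mur at chr17:22909809-22913565, between genes, had 65, 283, 280 and 364 reads, so that again WT fibroblasts were the low library, with a ratio of 4.22 (3.21 to 5.61). In the fibroblasts RLTR9D at chr19:44396386-44403365, 4217 bp from Scd4, fell from 155 reads to 26 (0.162 of WT, 0.103 to 0.247), and in embryos from 116 to 61 (0.546 of WT, 0.394 to 0.751). RLTR42 at chr2:84316783-84322221 covers exon and untranslated sequence of Tfpi, the tissue factor pathway inhibitor. It had 56 and 17 reads in fibroblasts and 24 and 46 in embryos, with ratios of 0.294 (0.160 to 0.513) and 1.99 (1.19 to 3.41). RLTR22_Mus at chr2:128884755-128891298, in the lincRNA Gm14022, had 56, 16, 79 and 61 reads and passed the test in fibroblasts only, at 0.277 of WT (0.148 to 0.489). In the edgeR test with assumed variation RLTR42 and RLTR22_Mus lost their fibroblast calls (adjusted p = 0.0956 and 0.0805).

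The loci with the most reads among those that did not pass the test in a tissue were all exonic. RLTR15 at chr4:155316192-155325362 covers coding exons of the ubiquitin conjugating enzyme gene Ube2j2 and had 670, 766, 892 and 786 reads, with a fibroblast ratio of 1.11 (0.997 to 1.23). RLTR25A at chr15:81799420-81806632 covers exons of Gm5805 and had 713, 691, 1293 and 894 reads, and an RLTRETN_Mm locus inside its bounds was listed with the same 4 counts. RLTR9D at chr13:81202703-81211368 had 5419, 6988, 9218 and 9001 reads, with an embryo ratio of 1.01 (0.985 to 1.04). RLTR9A at chr7:134603015-134610436 covers an exon of Prr14 and had 1800, 1691, 2305 and 2235, again with an embryo ratio of 1.01 (0.949 to 1.07). In the other tissue 3 of these 4 loci passed the test by small ratios: RLTR25A at 0.718 in embryos, and RLTR9D and RLTR9A at 1.25 and 0.910 in fibroblasts. Whether reads at exonic loci began in the repeat or in the gene was not tested.

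**Figure D2:**
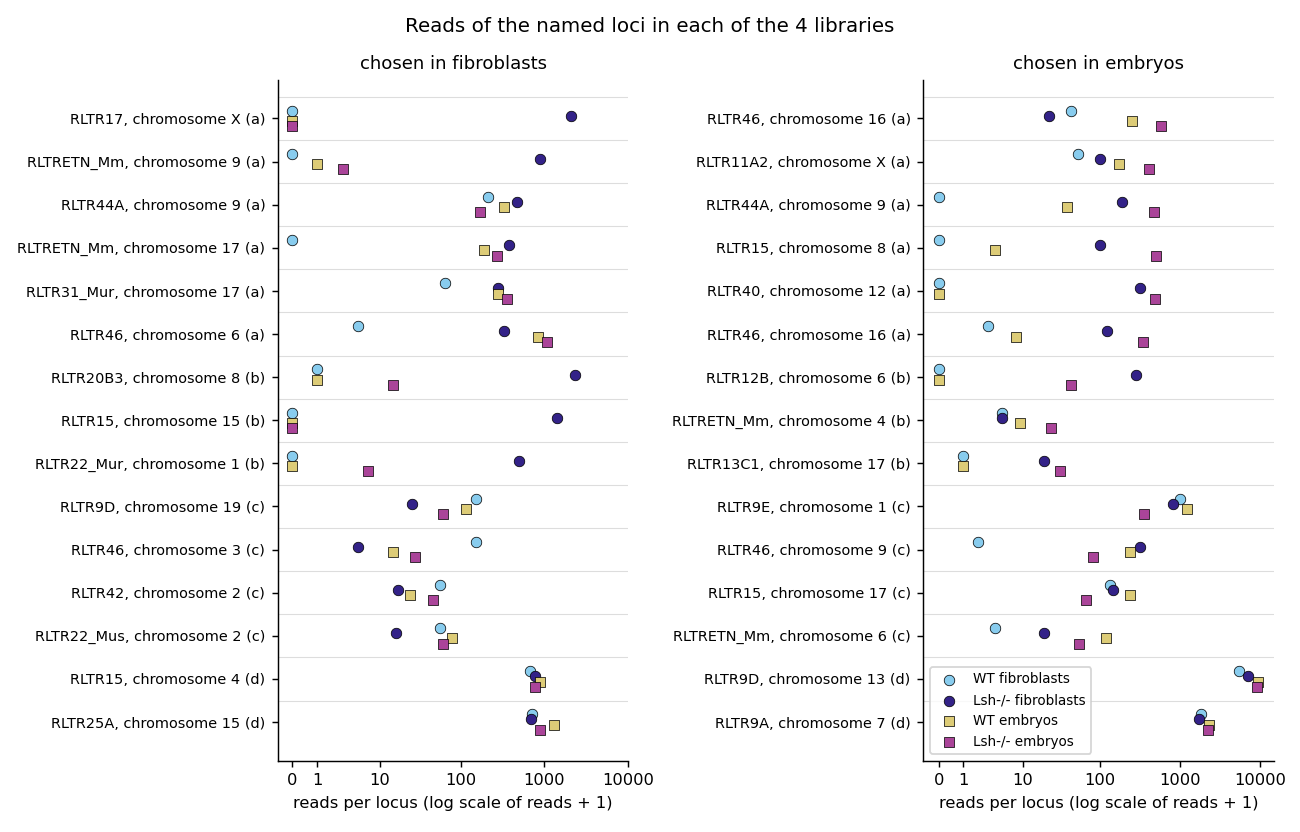
Reads at each named locus in the 4 libraries, on a log axis of reads plus 1, for loci chosen in fibroblasts (left) and in embryos (right). Letters mark loci that were higher and away from IAP (a), higher and near IAP (b), lower (c), or not past the test (d). The WT fibroblast point is at 0 for RLTR17, both RLTRETN_Mm loci of class a, RLTR15 on chromosome 15 and RLTR22_Mur on the left, and the class d points lie close together.

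In embryos, ERVK loci went both ways. Of 563 tested, 119 were higher (21.1%) and 99 lower (17.6%), against 48.2% and 9.92% of the 1795 LTR loci tested, and the median log2 fold change was 0.01 (-0.08 to 0.09). The split rests on the method, since scaling by the LTR counts gave 87 higher and 141 lower, and the edgeR test with assumed variation 44 and 15. A total of 36 loci were above 5, which was 6.39% (4.65 to 8.73), against 26.5% of all LTR loci, and 12 were below -5, against 1.39%. A prior count of 1 gave 1.07% above 5 and a minimum of 50 counts gave 1.49%. Of the 36, 33 had no WT read, and together they held 13 reads in WT embryos and 1904 in Lsh-/- embryos. Of the 12 below -5, all had 0 reads in Lsh-/- embryos. There were 100 loci tested only through Lsh-/- reads and 76 only through WT reads. Of the 365 with at least 10 WT reads, 43 were higher, 97 lower and 0 above 5. Near IAP, 8 of 26 loci were above 5 (30.8%), and farther away 28 of 537 (5.21%, 3.63 to 7.43). Of these tested loci, 8 near IAP and 25 farther away had no WT read and so had to pass 5.

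Named embryo loci that were higher included several with no read in WT fibroblasts. RLTR44A at chr9:97175955-97179241, between genes, had 0 and 189 reads in fibroblasts and 38 and 466 in embryos, with an embryo ratio of 12.7 (9.14 to 18.2) and at least 61.0-fold in fibroblasts. RLTR15 at chr8:89322807-89328257, 36781 bp from N4bp1, had 0, 99, 4 and 496, with an embryo ratio of 129 (49.97 to 474). Both Lsh-/- libraries stood above both WT libraries at each of them. RLTR11A2 at chrX:8437224-8440052 had 53, 100, 174 and 409 reads and was higher by 1.83-fold (1.30 to 2.60) in fibroblasts and 2.44-fold (2.04 to 2.93) in embryos. RLTR46 at chr16:90341789-90350117, 36525 bp from Hunk, had 43, 22, 248 and 576, so that it was higher in Lsh-/- embryos (2.41, 2.07 to 2.81) and lower in Lsh-/- fibroblasts (0.495, 0.282 to 0.847). The embryo calls of RLTR11A2 and of this RLTR46 were lost in the edgeR test with assumed variation (adjusted p = 0.276 and 0.277).

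Near IAP loci, RLTR12B at chr6:59650223-59659025, which covers the small RNA SNORA44, lay 2032 bp from an IAPLTR1_Mm locus and had 0, 281, 0 and 43 reads, at least 90.7-fold higher in Lsh-/- fibroblasts and 14.9-fold in embryos. That IAP locus had 0, 127, 0 and 3. RLTR13C1 at chr17:22624820-22631653 had 1, 19, 1 and 31 reads, and the IAPLTR1a_Mm locus that covers most of it had 1, 19, 2 and 31. RLTRETN_Mm at chr4:144441267-144445570, 6834 bp from an IAPLTR1a_Mm locus, had 5, 5, 9 and 24, and passed the test in embryos only, at 2.77-fold (1.24 to 6.77). That call was lost when libraries were scaled by their LTR counts (adjusted binomial p = 0.0582) and in the edgeR test with assumed variation (adjusted p = 0.376).

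Of the lower embryo loci, RLTR9E at chr1:97395742-97403886, over the pseudogene Gm15427, had 1003 and 815 reads in fibroblasts and 1220 and 356 in embryos. Its ratio was 0.787 (0.716 to 0.864) in fibroblasts and 0.303 (0.268 to 0.341) in embryos, so the Lsh-/- embryos were the low library. RLTR46 at chr9:4259367-4266947, 27846 bp from Aasdhppt, had 2 and 318 reads in fibroblasts and 233 and 82 in embryos. It was higher in Lsh-/- fibroblasts, with a ratio of 154 (42.3 to 1277), and lower in Lsh-/- embryos, at 0.365 of WT (0.281 to 0.472). RLTR15 at chr17:8574070-8577967, in an intron of Sft2d1, had 132, 146, 239 and 67, and passed the test in embryos only, at 0.291 of WT (0.219 to 0.383). In the edgeR test with assumed variation these 3 loci lost their embryo calls, with adjusted p of 0.113, 0.212 and 0.108.

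Position and structure were compared for loci farther than 10 kb from IAP. In fibroblasts, 43 of 167 loci between genes were above 5 (25.7%, 19.7 to 32.9), 9 of 99 in introns (9.09%, 4.86 to 16.4) and 8 of 83 over exons (9.64%, 4.97 to 17.9). In embryos the shares were 8.59%, 1.09% and 4.17%. Loci in which the 2 ends aligned to each other, as the LTRs of a provirus do, were above 5 at 44 of 179 in fibroblasts (24.6%, 18.9 to 31.4), and those without at 16 of 170 (9.41%, 5.88 to 14.7). In embryos the counts were 20 of 260 and 8 of 275. Since the LTR pair of a copy was identical at insertion, the identity of the ends falls with age. In fibroblasts the share above 5 was 17.7% of 62 loci with ends under 90% identical, 23.5% of 68 with 90 to 97% and 34.7% of 49 with 97% or more, and the intervals of these shares overlap. No such order was seen in embryos, where the share was 8.33% of 84, 10.4% of 106 and 2.86% of 70. Identity and repeat name were not separated. RLTRETN_Mm, with a median identity of 98.7%, had 39 tested fibroblast loci farther from IAP, of which 12 were above 5.

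The loci above 5 in fibroblasts and farther from IAP had a median of 7 CpG in their first 300 bases, against 3 for loci within 1 of 0, and 73.3% of them had terminal repeats, against 43.2%. Over 347 loci the Spearman correlation of that CpG count with the fold change was 0.18 in fibroblasts, and over 532 loci 0.01 in embryos. Loci of 1 repeat name share most of their sequence, so these points are not independent. Of the 350 loci farther from IAP in fibroblasts, 57 had no WT read and so had to pass 5. The contrast is thus mainly between loci silent in the WT library and loci with WT reads. Exonic loci made up 13.3% of those above 5 and 29.7% of those within 1 of 0. The 60 loci made 50 neighbourhoods when loci within 100 kb were joined, and 43 stood alone.

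**Figure D3:**
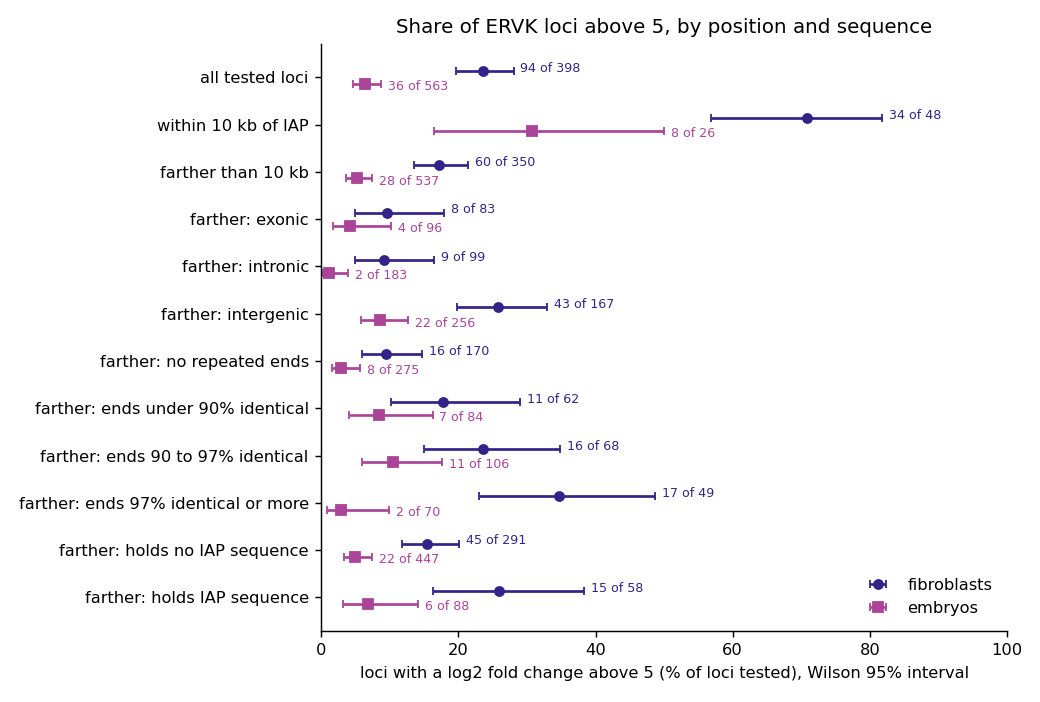
Percent of tested ERVK loci with a log2 fold change above 5, Lsh-/- over WT, in fibroblasts (circles) and embryos (squares), for all tested loci, by distance to a listed IAP locus and, for loci farther than 10 kb, by position, end repeats and IAP sequence. Bars are Wilson 95% intervals over loci and the numbers are counts. The highest share is 34 of 48 loci within 10 kb of IAP in fibroblasts.

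Of 309 loci tested in both, 102 were higher in fibroblasts and 74 in embryos, and 44 in both. Lower were 39 and 60, and 7 in both. Another 11 were higher in fibroblasts and lower in embryos, and 10 the other way round. Above 5 were 41 in fibroblasts and 22 in embryos, of which 18 were above 5 in both, which is 43.9% and 81.8% of them. However, 30 of all 36 loci above 5 in embryos had no read in WT fibroblasts. Such a locus is tested in fibroblasts only through its Lsh-/- reads and then has to pass 5. The 81.8% is thus largely set by the count filter. Over the 309 loci the Pearson correlation of the fold changes was 0.58 and the Spearman correlation 0.29. Loci that had to pass 5 also enter both correlations. The same overlaps over all LTR loci were not worked out, so whether they are particular to these ERVK loci was not tested.

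Of all 94 loci above 5 in fibroblasts, 59 had no read in WT embryos, 24 had 1 to 9 and 11 had at least 10. These 94 loci held 1538 reads in WT embryos and 3955 in Lsh-/- embryos, and 29 of them were also higher in embryos and 2 lower. The 11 with reads in WT embryos included 4 RLTRETN_Mm and 2 RLTR46 loci, so at these the WT embryos read an element that was at or near 0 in WT fibroblasts. Of the 36 loci above 5 in embryos, 30 had no read in WT fibroblasts and 20 were also higher in fibroblasts.

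**Figure D4:**
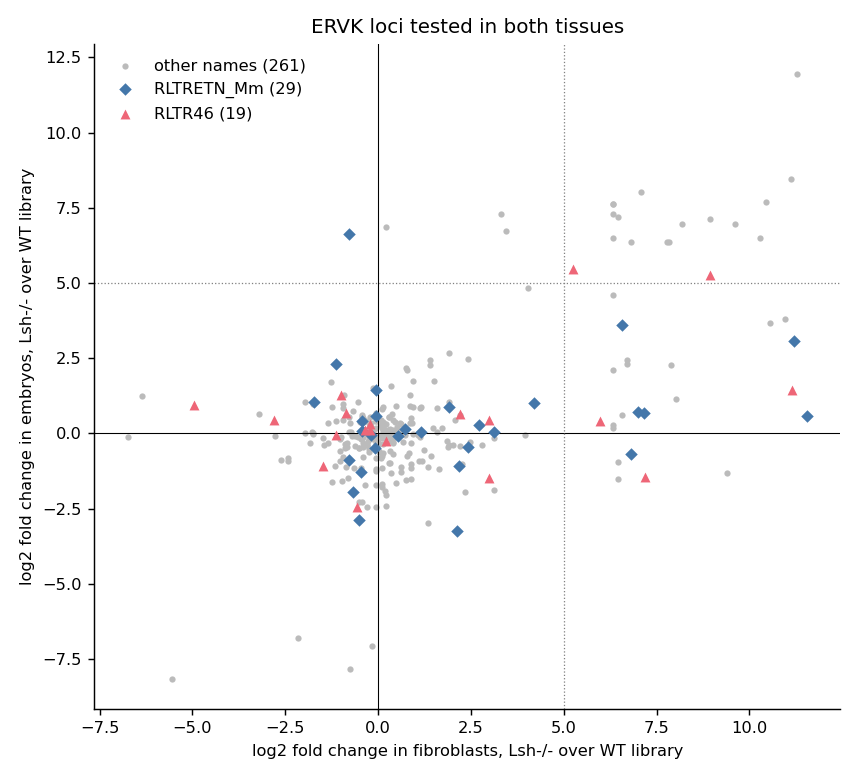
Log2 fold change of Lsh-/- over WT in fibroblasts (horizontal) against embryos (vertical) for the 309 loci tested in both, with RLTRETN_Mm (29 loci, diamonds) and RLTR46 (19 loci, triangles) marked. Dotted lines are at 5. The 18 loci at the upper right are above 5 in both tissues, and another 23 are above 5 in fibroblasts only.

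The deposited tables also count reads in an interval 10 kb upstream and another 10 kb downstream of each element. In fibroblasts 72 of 696 intervals with at least 10 counts were above 5 (10.3%, 8.30 to 12.8), against 12.7% of the 1562 intervals around all LTR loci, and the median was 0.23. In embryos 31 of 898 were (3.45%, 2.44 to 4.86), against 3.5% of 1973, and the median was -0.06. Around the 94 elements above 5 in fibroblasts, the upstream intervals held 867 and 1328 reads and the downstream ones 31 and 485, where the elements themselves went from 13 to 12830. Only 32 of these intervals had enough reads to test, and 20 were above 5. For elements farther than 10 kb from IAP it was 11 of 23. That distance is of the element, and whether the interval itself holds an IAP or another repeat was not checked. For raised intervals around IAPs, the paper reports that a number overlapped another repeat nearby, often an IAP LTR. In embryos 4 intervals around the 36 elements above 5 could be tested, and 0 were above 5.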

How the data were processed

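Per the labels and methods, strand-specific paired-end reads were mapped to mm9 with TopHat 1.4.0 without mismatches. The authors kept uniquely mapped reads, joined them to repeatmasker loci in Galaxy and deposited raw read counts per locus and per flanking interval, 1 library per table. Whether strand was used in counting is not given in the sources used here. However, RLTR20B3 on chromosome 8 and the IAP inside it lie on opposite strands and had nearly the same counts. Reads there thus appear to have been counted without regard to strand. The labels name total RNA and the methods mRNA.

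Counts were scaled by TMM (edgeR 4.0.16, R 4.3.3) over the intervals around LINE-1 loci. Fold changes used a prior count of 0.125, and a locus was tested where both libraries together had 10 or more counts. The exact binomial test was two-sided and adjusted over all LTR loci (Benjamini-Hochberg, SciPy 1.17.1). Ratios carry exact 95% counting intervals, which cover counting error only. A library at 0 was set to 3 counts for a lower bound. Tested on simulated data with 200 of 2103 fibroblast loci changed by 2 on the log2 scale, the test recovered 64.5% and called 0.263% of the rest. For 1795 embryo loci it was 59.5% and 0.125%. The simulated libraries differed by counting error only, as the test assumes. These shares therefore say nothing about calls caused by variation between cultures or embryos.

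Named loci were those with the most counts in a tissue: 6 higher (log2 above 1) away from IAP, 3 higher near IAP, 4 lower (below -1) and 2 not past the test. Repeat names were described with at least 10 tested loci. Members and lists were chosen with earlier results of these data known. The search for IAP runs and the chromosome 12 stretch were added after seeing the data. Sequences and gene positions came from the mm9 genome and GENCODE vM1. Ends were called repeated where at least 100 aligned bases were at least 70% identical.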

Additional observations from a re-analysis of the deposited data

Results flagged for a closer look

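Among 11 loci called higher in fibroblasts and lower in embryos, and 10 called the other way round, were 5 of the named loci. The matching counts over all LTR loci were not worked out, and the difference between tissues was not tested. In the tissue it was named in, each of the 5 lost its call in an edgeR exact test with an assumed variation of 0.4. Their calls in the other tissue were not checked in that test. The log2 fold change, Lsh-/- over WT, of RLTR42 in Tfpi was -1.76 in fibroblasts and 0.99 in embryos. That of RLTR44A in 4922501C03Rik was 1.11 and -0.91. RLTR46 near Hunk on chromosome 16 had -1.01 and 1.27. RLTR46 near Aasdhppt on chromosome 9 had 7.18 and -1.45, the first from 2 WT reads. RLTRETN_Mm near Spsb2 on chromosome 6 had 2.17 and -1.08, the first from 4 WT reads. In that test the adjusted p was 0.0956 for RLTR42 and 0.250 for RLTR44A in fibroblasts, and in embryos 0.277 and 0.212 for the RLTR46 loci and 0.415 for RLTRETN_Mm.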

How the results depend on the processing

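No paired analysis was possible because each group is 1 library, and no library could be left out. In fibroblasts, scaling by the LTR total gave 82 loci higher and 183 lower with a median of -0.89, and scaling by all 6 tables gave 15 lower and a median of 1.10. A limit of 1 put 40.2% of loci and 22.7% of intervals above it, a prior count of 1 put 8.79% and 3.74% above 5, and a minimum of 50 counts 19.2% and 3.67%, with 62 loci higher and 24 lower. All listed loci gave 14.5% and a median of 0.90. An edgeR exact test with an assumed variation of 0.4 gave 10 lower. Without loci near IAP the shares were 17.1% of loci and 7.83% of intervals. Chosen after seeing the data, leaving out exonic loci gave 28 lower, and leaving out loci near IAP or holding IAP sequence gave 104 higher and 15.4% above 5.

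In embryos, a limit of 1 gave 21.5% of loci and 12.9% of intervals, a prior count of 1 gave 1.07% and 0.780%, all listed loci 10.2% and 7.07%, and a minimum of 50 counts 1.49% and 1.25%, with 41 higher and 45 lower. The edgeR test gave 44 higher and 15 lower. Scaling by the LTR total gave a median of -0.23. That scaling also reversed RLTR44A in 4922501C03Rik (-0.21) and RLTR15 in Ube2j2 (-1.17) in fibroblasts, and RLTR9D on chromosome 13 (-0.22) and RLTR9A in Prr14 (-0.23) in embryos. Scaling by all 6 tables reversed RLTR25A in Gm5805 (0.59) in fibroblasts. The fewer calls at a minimum of 50 counts come with fewer loci tested, and other causes were not tested. The other 74 summary values stayed within their interval or, for counts, within 1.5 times. Of the 30 named loci, 10 lost their call in the edgeR test, including all 4 lower embryo loci. DESeq2 size factors were 1 in every library, which is no scaling beyond a common size.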
